A study of Rattus norvegicus with 9 samples.

Results

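Serpins are a family of proteins that mostly inhibit serine proteases. In the plasminogen system, the urokinase and tissue-type activators (Plau and Plat) turn plasminogen into the protease plasmin, the urokinase receptor Plaur holds urokinase at the cell surface, and serpins such as Serpine2 and Serpinf2 inhibit proteases of this system. Extracellular serpins also control clotting, complement, and matrix turnover, while the serpins of clade B mostly stay inside cells and inhibit leukocyte and lysosomal proteases.

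The genes described here were chosen as members of the family whose symbol in the deposited table is Serpin followed by a clade letter from a to i and a number, with Plat, Plau, and Plaur added. Serping1 and Serpinh1 were left out by this rule. The members described numbered 41 of 35362 genes, 38 serpins and 3 others. Of these, 13 passed the filter on low counts and were tested, and 28 did not pass, 15 of them with no read in any sample.

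RNA was sequenced from passage 3 adipose-derived mesenchymal stem cells of the groin (SASCs), of the fat around the kidney (PASCs), and of the epididymal pad (EASCs). All groups came from male Sprague Dawley rats of 6 weeks, and the labels name no treatment or altered gene in any of them. Each group has 3 samples, 9 in all. The extraction notes give more wells in each group than there are samples. No source used here states whether a separate rat gave each sample. All sample titles share the prefix sd1, whose meaning is not stated. The p-values therefore measure only the spread between these samples, which may be technical. The cells were plated from a collagenase digest and washed after a short attachment, with no sorting step described, and in such bulk samples fewer cells of a type and less RNA per cell cannot be told apart. The study asked how stem cells of the 3 fat depots differ, and each comparison below asks this of the serpins and their protease partners.

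Total counts per sample ranged from 17591916 to 30299032. Levels are given as counts relative to library size (CPM), scaled by edgeR's TMM factors, and levels of different genes are compared only per kb of gene length. A level of 3 counts was 0.104 to 0.159 CPM. Ribosomal RNA took 10.4% to 15.5% of counts in SASCs and 15.9% to 40.3% in the other 6 samples, and with its genes removed before scaling the numbers of DEGs among the genes described here were the same. All 7 mesenchymal stem cell markers listed (Thy1, Nt5e, Eng, Cd44, Itgb1, Pdgfra, and Pdgfrb) passed the filter, with a summed level of 4135 to 4262 CPM in SASCs, between 3784 and 3960 CPM in PASCs, and between 4958 and 5027 CPM in EASCs. Pdgfra, a receptor of fat cell progenitors, was downregulated in both visceral groups (log2 fold change −2.72 ± 0.060 (SE) in EASCs and −2.47 ± 0.060 (SE) in PASCs). Eng and Itgb1 were upregulated in EASCs (1.77 ± 0.059 (SE) and 1.497 ± 0.058 (SE)), and the other 4 markers passed the fold threshold in neither comparison.

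In differentially expressed genes (DEGs), the fold change was above 2 and the Benjamini-Hochberg adjusted p-value of edgeR's quasi-likelihood test under 0.05. Between EASCs and SASCs, 8 of the 13 genes tested were DEGs, 6 of them upregulated in EASCs (Plaur, Serpinb1a, Serpinb6, Serpinb6b, Serpinb8, and Serpinb9) and 2 downregulated (Plau and Serpina3n). Of all 14770 genes tested in this comparison, 27.8% were DEGs, 13.6% upregulated and 14.2% downregulated. Between PASCs and SASCs, 9 of the 13 genes were DEGs against 26.9% of all genes, the same 6 upregulated (12.0% of all genes) and Plat, Plau, and Serpina3n downregulated (14.9% of all genes). Between EASCs and PASCs, only Plat (upregulated in EASCs) and Serpinb1a (downregulated in EASCs) were DEGs, against 7.39% of all genes (5.19% upregulated and 2.20% downregulated). The comparisons of EASCs and PASCs with SASCs share the SASCs samples. With total counts in place of TMM, the share of upregulated genes among the DEGs of all genes was 28.3% in EASCs and 28.5% in PASCs, and the members called were 7 (without Serpinb6) and 10 (with Serpine2).

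Serpinb6b and Serpinb8 passed the filter through their counts in PASCs and EASCs, so the number of DEGs among the genes tested is a description and not a test of the family. The median log2 fold change of the 13 genes was 0.33 in EASCs and 0.15 in PASCs against SASCs, where the median of all genes tested was 0.01 and −0.01. At an adjusted p under 0.05 and any fold change, 10 of the 13 genes passed between EASCs and SASCs, 7 higher and 3 lower in EASCs, where 69.7% of all genes passed (35.5% higher and 34.3% lower). Between PASCs and SASCs 11 passed, 7 higher and 4 lower, against 69.2% of all genes (34.6% in each direction). Between EASCs and PASCs 9 passed, 6 higher and 3 lower in EASCs, against 30.7% (16.1% and 14.5%). Most of the 13 genes thus passed at some fold change in the comparisons with SASCs, as most of all genes tested did.

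Samples of the groups did not overlap for 9 of the 13 genes between EASCs and SASCs, 7 higher (36.3% of all genes) and 2 lower (35.8%), 72.1% of all genes in both directions. The same held for 11 genes between PASCs and SASCs, 7 higher (35.7%) and 4 lower (36.0%), against 71.6% in both directions. It held for 8 genes between EASCs and PASCs, 6 higher (21.1%) and 2 lower (20.1%), against 41.2%.

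**Figure D1:**
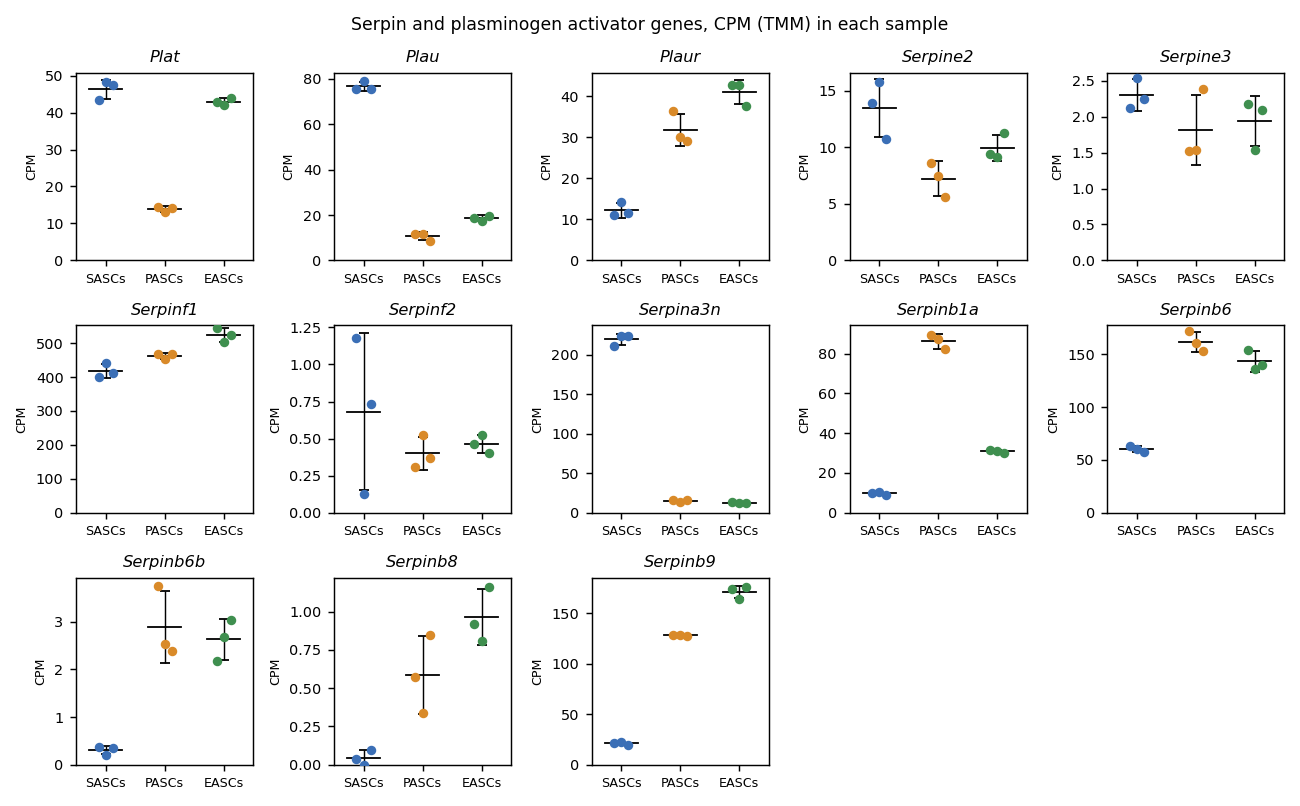
Level of each gene tested in each sample, in CPM with TMM scaling on a linear axis from 0, where points are samples, the line is the mean, and the bar is ± 1 SD (n = 3). Serpina3n and Plau sat far higher in SASCs than in both other groups, the clade B genes sat higher in PASCs and EASCs, and Plat was low in PASCs alone.

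To show the DNA beside genes that moved together between SASCs and the visceral groups, the 250 bases upstream of the start site are printed below for Serpina3n and Plau, which were higher in SASCs, and for Plaur and Serpinb1a, which were lower in SASCs. The sequences are from RefSeq on GRCr8, a different build from that of the deposited table, and run 5′ to 3′ on the strand of the gene. A promoter was found by gene ID for 11 of the 13 genes tested. Capitals mark matches on either strand to any of 7 motifs, given here with the share of 33469 rat promoters of this length that hold them. The TATA box was searched as TATAAA and is held by 12.9% of promoters. The GC box was searched as GGGCGG and is held by 30.5%. The AP-1 motif was searched as TGANTCA (6.34% of promoters), and the motif of STAT factors as TTCNNNGAA (7.67%). The TEAD motif was searched as GGAATG, with a share of 12.1%. The motif called CCAAT has a share of 34.0%, and the CArG motif, given by name, of 1.5%. The motifs were chosen after the values of the genes were known, and a match is a description of the letters only.
Serpina3n promoter, chr6:129088142-129088391, + strand, with 1 STAT match at position −123: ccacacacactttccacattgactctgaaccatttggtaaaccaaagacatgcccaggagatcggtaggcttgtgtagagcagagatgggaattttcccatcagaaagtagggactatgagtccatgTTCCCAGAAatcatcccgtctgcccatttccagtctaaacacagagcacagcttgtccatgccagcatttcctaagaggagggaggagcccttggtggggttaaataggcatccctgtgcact
Plau promoter, chr15:3511988-3512237, − strand, with 3 GC boxes at positions −122, −104, and −87: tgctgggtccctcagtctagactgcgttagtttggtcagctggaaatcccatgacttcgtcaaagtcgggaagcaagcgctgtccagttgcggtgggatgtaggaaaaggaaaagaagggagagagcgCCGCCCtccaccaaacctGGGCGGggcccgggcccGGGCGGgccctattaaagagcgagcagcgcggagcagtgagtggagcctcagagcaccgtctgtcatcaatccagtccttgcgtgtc
Plaur promoter, chr1:89181113-89181362, + strand, with 1 AP-1 match at position −83: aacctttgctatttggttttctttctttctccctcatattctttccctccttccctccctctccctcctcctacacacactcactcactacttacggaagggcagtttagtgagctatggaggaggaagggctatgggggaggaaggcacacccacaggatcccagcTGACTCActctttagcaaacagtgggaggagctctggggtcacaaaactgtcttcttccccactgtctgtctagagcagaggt
Serpinb1a promoter, chr17:31799196-31799445, + strand, with 1 TATA box at position −62: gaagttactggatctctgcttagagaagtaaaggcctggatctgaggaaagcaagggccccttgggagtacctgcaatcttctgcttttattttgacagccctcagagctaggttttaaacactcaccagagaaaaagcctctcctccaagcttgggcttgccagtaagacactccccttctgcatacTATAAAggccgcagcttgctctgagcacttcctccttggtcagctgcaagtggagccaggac

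Positions count bases back from the start site to the first base of the match. No printed matches overlap each other. Among the other promoters found, GC boxes were present in those of Serpinb6 (3 at one start site and 2 at the other), Serpinb6b (1), and Serpine2 (6, of which those at −97 and −92 share a base), and none of the 7 motifs was matched in those of Serpinb9, Serpine3, Serpinf1, and Serpinf2. The 2 printed genes that were higher in SASCs shared no motif, nor did the 2 that were lower.

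Urokinase was lower in both visceral groups than in SASCs and its receptor was higher, while the tissue-type activator was lower in PASCs and did not pass the test in EASCs. Plau (rn6, chr15:3644296-3650765), the urokinase gene, was at 75.7, 79.0, and 75.6 CPM in the 3 SASCs samples, 11.7, 11.5, and 8.68 CPM in PASCs, and 18.7, 17.2, and 19.7 CPM in EASCs. Every SASCs sample was above every other sample, and the EASCs samples were all above the PASCs samples. Plau was 4.15-fold lower in EASCs (log2 fold change −2.05 ± 0.083 (SE), adjusted p = 3.51e-18) and 7.15-fold lower in PASCs (−2.84 ± 0.088 (SE), adjusted p = 1e-20), and it was 1.72-fold higher in EASCs than in PASCs (0.79 ± 0.095 (SE), adjusted p = 1.79e-07).

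Plat (rn6, chr16:74098263-74122897), the tissue-type activator, was at 43.5, 48.2, and 47.4 CPM in SASCs, 14.5, 13.1, and 14.2 CPM in PASCs, and 42.8, 42.2, and 44.0 CPM in EASCs. The PASCs samples were apart from all others, while SASCs and EASCs overlapped. Plat was 3.32-fold lower in PASCs than in SASCs (−1.73 ± 0.076 (SE), adjusted p = 2.69e-17) and 3.09-fold higher in EASCs than in PASCs (1.63 ± 0.077 (SE), adjusted p = 1.18e-15). Between EASCs and SASCs the log2 fold change was −0.11 ± 0.069 (SE) with an adjusted p of 0.170, which does not show that the levels were the same, and with total counts in place of TMM it was −0.51 with an adjusted p of 0.00451.

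Plaur (rn6, chr1:81328171-81344954), the receptor that focuses urokinase on the cell surface, was at 10.95, 14.3, and 11.4 CPM in SASCs, 36.3, 30.0, and 29.02 CPM in PASCs, and 42.7, 42.6, and 37.5 CPM in EASCs. The 3 groups did not overlap, with SASCs lowest and EASCs highest. Plaur was 3.36-fold higher in EASCs (1.75 ± 0.101 (SE), adjusted p = 1.06e-14) and 2.61-fold higher in PASCs (1.38 ± 0.102 (SE), adjusted p = 2.26e-12) than in SASCs. The difference between EASCs and PASCs was 0.36 ± 0.092 (SE) on the log2 scale with an adjusted p of 0.00309, and 0.31 with an adjusted p of 0.255 under total counts.

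Of the serpins that act on these proteases, Serpine2 was lower in both visceral groups by less than the fold threshold. Serpine2, or protease nexin 1, inhibits thrombin, urokinase, and plasmin at cell surfaces. It was at 13.9, 15.8, and 10.7 CPM in SASCs, 8.65, 7.44, and 5.56 CPM in PASCs, and 9.38, 9.16, and 11.2 CPM in EASCs. SASCs and EASCs overlapped, and PASCs lay below both. Serpine2 fell in PASCs by 0.89 ± 0.147 (SE) on the log2 scale (adjusted p = 5.97e-06) and in EASCs by 0.45 ± 0.142 (SE) (adjusted p = 0.00695, and 0.0666 without the second SASCs sample).

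Serpinf2, or α2-antiplasmin, is the main plasmin inhibitor of blood, and it was near the limit of counting. Its counts were 34, 3, and 15 in SASCs, and 8, 14, and 7 in PASCs, and then 11, 13, and 9 in EASCs, and no difference passed the test (adjusted p = 0.346 in EASCs and 0.211 in PASCs). The spread of the SASCs samples was so wide that the log2 fold change in EASCs was −0.58 with all samples and 0.15 without the first SASCs sample, and that in PASCs was −1.26 with an adjusted p of 0.0340 without the second. Serpine3 was at 1.53 to 2.55 CPM over all 9 samples and passed the test in no comparison (adjusted p from 0.216 to 0.789). Serpine3 lies in part over Ints6 on the other strand, a gene with up to 663 counts where Serpine3 had at most 61, and since no source states whether counting used strand, reads of the 2 genes could not be told apart.

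The balance of the activators differed between the groups, as ratios of reads within a sample, which need no scaling between samples. Plat reads were 0.574 to 0.627 of the Plau reads in SASCs, 1.14 to 1.63 times in PASCs, and 2.23 to 2.45 times in EASCs, with no overlap. The log2 ratio was higher by 1.94 in EASCs and by 1.13 in PASCs than in SASCs, and by 0.81 in EASCs than in PASCs (two-sided exact permutation tests, p = 0.1 for each, the smallest that 3 against 3 samples allow). Plaur reads were 0.145 to 0.181 of the Plau reads in SASCs, 2.60 to 3.33 times in PASCs, and 1.91 to 2.48 times in EASCs, so reads of the receptor outnumbered those of its ligand in both visceral groups and not in SASCs. Its log2 ratio was higher by 3.80 in EASCs and by 4.24 in PASCs than in SASCs, and EASCs differed from PASCs by −0.44 (exact permutation p = 0.1 for each). Genes differ in length, so a ratio of reads is not a ratio of transcripts, and it is compared here only between samples. A total of 6 such differences were computed, and none can pass a threshold of 0.05 with 3 samples a group.

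**Figure D2:**
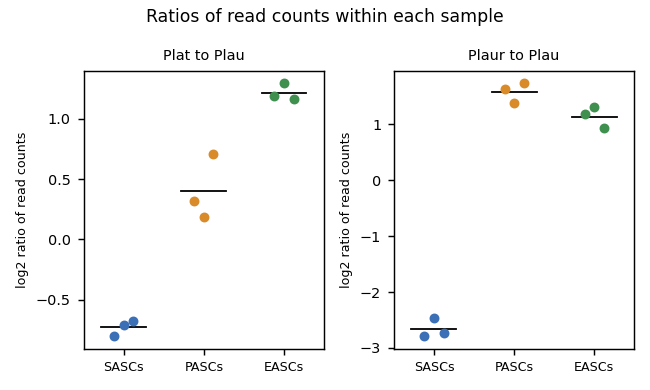
Log2 ratio of read counts of the named genes in each sample, where points are samples and the line is the mean of 3. Both ratios sat higher in PASCs and EASCs than in SASCs, with Plat to Plau highest in EASCs and Plaur to Plau highest in PASCs.

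Of the clade B serpins, Serpinb9, Serpinb1a, and Serpinb6 rose in both visceral groups. Serpinb6b and Serpinb8 were also higher there, but they entered the test through their counts in those groups. Serpinb9 (rn6, chr17:32648846-32673047), an inhibitor of granzyme B, was at 21.7, 22.1, and 19.9 CPM in SASCs, 128.3, 128.5, and 127.5 CPM in PASCs, and 173.5, 163.6, and 175.3 CPM in EASCs. The groups did not overlap, and EASCs were highest. Serpinb9 was 8.04-fold higher in EASCs (log2 fold change 3.01 ± 0.062 (SE), adjusted p = 9.66e-25) and 6.03-fold higher in PASCs (2.59 ± 0.062 (SE), adjusted p = 3.01e-23). EASCs exceeded PASCs by 0.42 ± 0.054 (SE) (adjusted p = 6.57e-07, and 0.160 under total counts).

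Serpinb1a (rn6, chr17:32903089-32911498), an inhibitor of neutrophil elastase and related proteases, had its highest level in PASCs. It was at 9.77, 10.2, and 8.79 CPM in SASCs, 89.6, 87.1, and 82.1 CPM in PASCs, and 31.4, 30.8, and 30.2 CPM in EASCs. The order was SASCs, EASCs, and PASCs with no overlap, the reverse order for the visceral groups of that of Serpinb9. Serpinb1a was 8.97-fold higher in PASCs (3.16 ± 0.076 (SE), adjusted p = 3.66e-23) and 3.20-fold higher in EASCs (1.68 ± 0.079 (SE), adjusted p = 1.22e-16), and it was 2.81-fold lower in EASCs than in PASCs (−1.49 ± 0.067 (SE), adjusted p = 4.56e-16).

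Serpinb6 (rn6, chr17:32154730-32209598), which inhibits cathepsin G and other leukocyte proteases, was at 62.9, 60.5, and 57.1 CPM in SASCs, 171.8, 160.8, and 152.8 CPM in PASCs, and 154.4, 135.7, and 140.0 CPM in EASCs. SASCs lay apart, and PASCs and EASCs overlapped. It was 2.69-fold higher in PASCs (1.43 ± 0.063 (SE), adjusted p = 2.36e-17) and 2.38-fold higher in EASCs (1.25 ± 0.063 (SE), adjusted p = 4.22e-16), and the latter was 0.86 on the log2 scale under total counts. The difference of −0.17 ± 0.060 (SE) between EASCs and PASCs (adjusted p = 0.0270) did not pass in 6 of 17 alternative settings. Serpinb6 overlaps Nqo2, with up to 168 counts, on the other strand, where Serpinb6 had up to 4490.

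Serpinb6b and Serpinb8 were low genes. Serpinb6b had 11, 5, and 7 counts in SASCs, then 98, 68, and 45 in PASCs, and then 52, 66, and 68 in EASCs, and was 9.10-fold higher in PASCs (3.19 ± 0.339 (SE), adjusted p = 3.70e-09) and 8.22-fold higher in EASCs (3.04 ± 0.343 (SE), adjusted p = 1.11e-08). Serpinb8 had 1, 0, and 2 counts in SASCs, then 15, 9, and 16 in PASCs, and then 22, 20, and 26 in EASCs. No SASCs sample reached any sample of the other groups in either gene. With 3 counts of Serpinb8 in SASCs in all, the ratio of its summed normalised counts was 13.5 in PASCs (95% exact interval 4.31 to 68.3) and 23.3 in EASCs (7.63 to 116), where the interval covers counting error only, and both differences passed the test (adjusted p = 0.000149 and 4.60e-06).

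The summed level of the 5 clade B genes per kb was 37.5 to 41.3 in SASCs, between 169 and 184 in PASCs, and between 132 and 143 in EASCs. The 3 groups did not overlap, and PASCs were highest. Serpinb1a and Serpinb1b, Serpinb6, Serpinb6b, and Serpinb6e, and Serpinb9 and Serpinb9d are related genes, and no source used here states how reads that match several genes were counted, so the split of reads within these groups is uncertain.

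**Figure D3:**
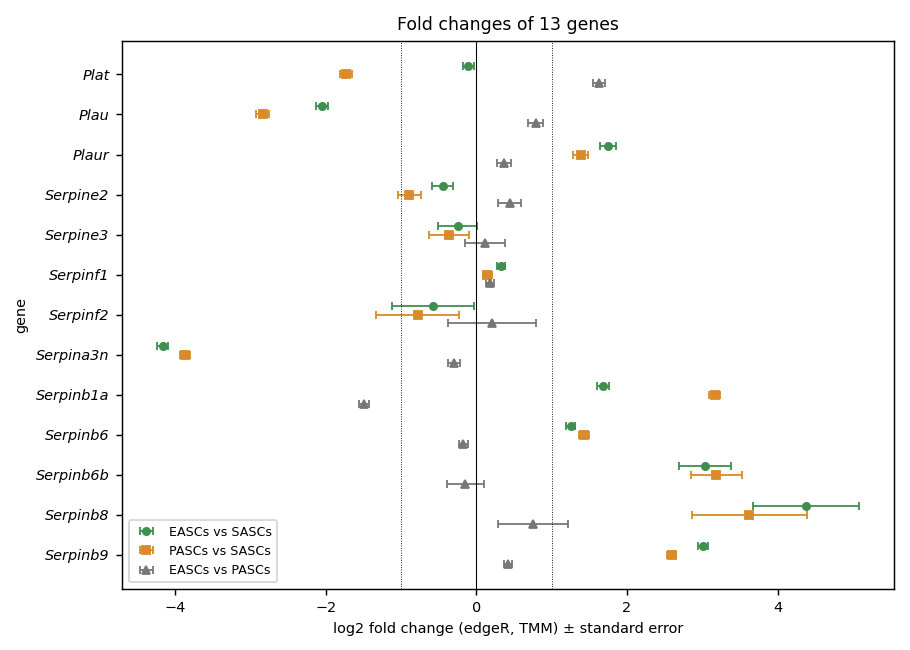
Log2 fold change (TMM, edgeR) of the 13 genes tested in the 3 comparisons, with bars of ± 1 standard error and dotted lines at a fold change of 2. Serpina3n and Plau lie to the left in both comparisons with SASCs and the clade B genes to the right, and the fitted value of Serpinb8 depends on the prior count because SASCs held 3 counts.

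Serpina3n (rn6, chr6:128073344-128080878), a secreted relative of α1-antichymotrypsin that rises in the acute phase response, showed the largest decrease of the 13 genes. It was at 211.5, 223.0, and 223.7 CPM in SASCs, 15.4, 13.98, and 15.8 CPM in PASCs, and 13.3, 11.6, and 11.8 CPM in EASCs. All SASCs samples lay far above the others, and the lowest PASCs sample lay above the highest EASCs sample. It was 17.96-fold lower in EASCs (log2 fold change −4.17 ± 0.071 (SE), adjusted p = 1.73e-26) and 14.6-fold lower in PASCs (−3.87 ± 0.069 (SE), adjusted p = 7.07e-26). Between EASCs and PASCs the log2 fold change was −0.30 ± 0.080 (SE) with an adjusted p of 0.00504, and 0.145 under total counts. Per kb, Serpina3n ranked 424th of 14770 genes in SASCs, 5815th in PASCs, and 6562nd in EASCs. The neighbouring Serpina3c and Serpina3m, of the same subfamily, had no read in any sample.

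Serpinf1 (rn6, chr10:62241750-62254145), pigment epithelium-derived factor, is a secreted serpin that inhibits no protease and is known for restraint of blood vessel growth. It was at 399.0, 441.0, and 412.8 CPM in SASCs, 466.7, 453.2, and 466.9 CPM in PASCs, and 544.6, 502.7, and 524.9 CPM in EASCs. The groups did not overlap, but the differences were small. The log2 fold change was 0.33 ± 0.055 (SE) in EASCs (adjusted p = 7.68e-06) and 0.15 ± 0.055 (SE) in PASCs (adjusted p = 0.0202), and under total counts it was −0.07 in EASCs and −0.18 in PASCs. Its direction turned under total counts alone of 17 alternative settings in each of these comparisons, so it rests on scaling beyond total counts.

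The order of the 13 genes by level per kb differed between the groups. Serpinf1 led them in all groups. In SASCs, Serpina3n was at 103 to 109 CPM per kb, followed by Plau at 38.3 to 40.0 and Serpinb6 at 24.7 to 27.2, without overlap between neighbours. In PASCs, Serpinf1 was followed by Serpinb6 and Serpinb1a, which overlapped at 66.0 to 74.2 and 64.9 to 70.7 CPM per kb, then Serpinb9 at 36.3 to 36.6. In EASCs, Serpinb6 at 58.7 to 66.7 CPM per kb, Serpinb9 at 46.6 to 49.9, and Plaur at 31.0 to 35.2 followed without overlap. By mean level, the lowest 3 in SASCs were Serpinf2, Serpinb6b, and Serpinb8, though the samples of Serpinf2 overlapped those of Serpine3 above it. In both visceral groups the lowest 3 were Serpine3, Serpinf2, and Serpinb8.

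The genes not tested, 28 in all, held 12 of 13 clade A genes, 12 of 17 clade B genes, and 4 of 8 genes of clades C, D, E, F, and I, and none of them had more than 11 counts in a sample. Serpina12, or vaspin, an adipokine of visceral fat, had no read in SASCs, 9, 6, and 2 counts in PASCs, and 3, 2, and 5 counts in EASCs. Serpinb2, an inhibitor of urokinase, had 11 counts in 1 EASCs sample, 1 count in each of 2 PASCs samples, and none in the other 6 samples. Serpina1, the α1-antitrypsin gene, and Serpina5, the protein C inhibitor, had no read. Serpini1, or neuroserpin, an inhibitor of Plat, had 1 to 10 counts in every sample. Serpinc1, the antithrombin gene, had at most 8 counts, and Serpind1, or heparin cofactor II, at most 6 beside 1167 counts of Pi4ka on the other strand. None of these genes entered the reported fit. Without the filter on low counts, Serpina12 passed as upregulated in both comparisons with SASCs, and Serpinb2 passed in EASCs on the reads of 1 sample.

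Of the serpins, 29 lie in 3 clusters on rn6. The chromosome 6 cluster (127500014 to 128080878) holds 12 clade A genes, of which Serpina3n at its edge was the 1 tested. The chromosome 13 cluster (26903052 to 27914038) holds 10 clade B genes, of which Serpinb8 at its edge was the 1 tested. The chromosome 17 cluster (32154730 to 32911498) holds 7 clade B genes, of which Serpinb6, Serpinb9, Serpinb6b, and Serpinb1a were tested. Genes lying between them, Serpinb6e and Serpinb9d, had no read, and Serpinb1b had at most 3 counts.

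**Figure D4:**
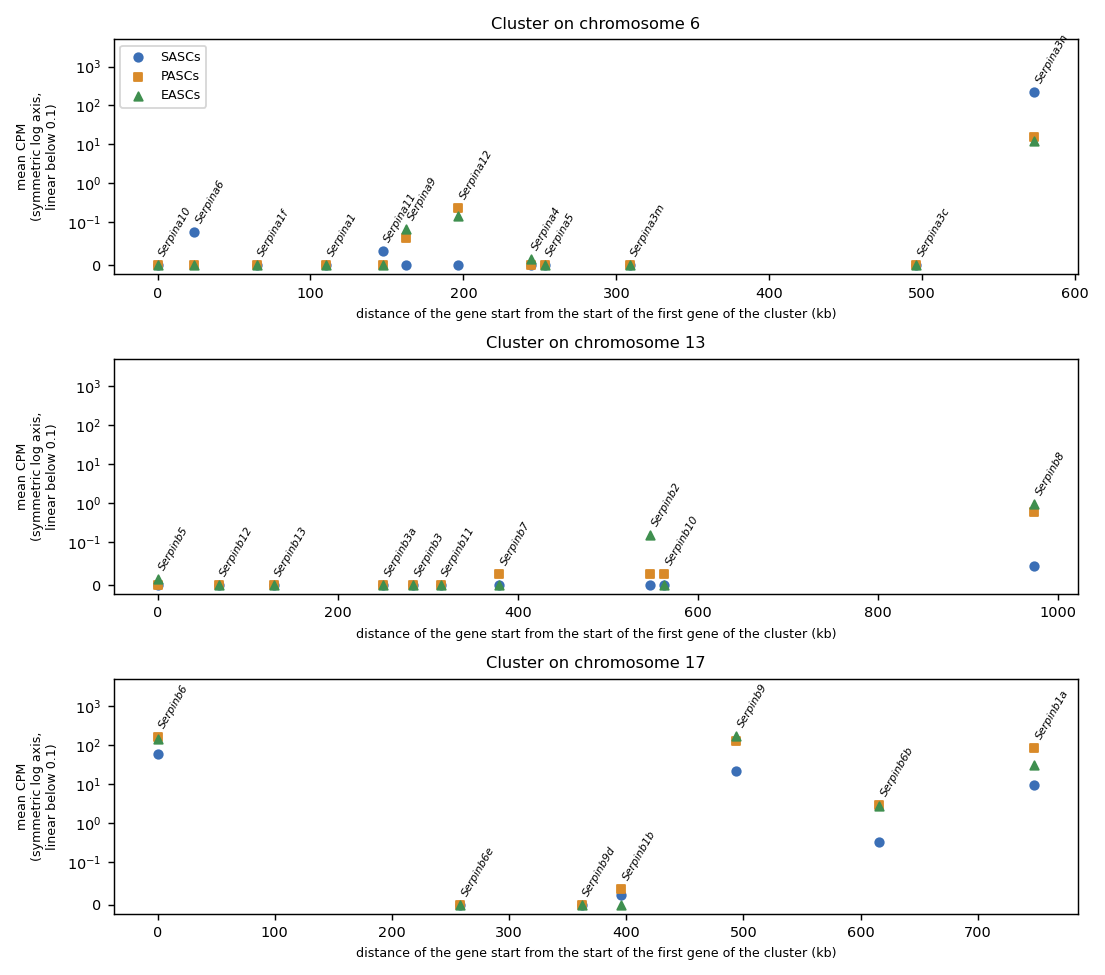
Mean CPM of each serpin in the 3 genomic clusters against the distance of its start from the first gene of the cluster in kb, with a symmetric log axis that is linear below 0.1 CPM. Blue circles are SASCs, orange squares PASCs, and green triangles EASCs. Serpina3n in SASCs stands alone above the near-silent chromosome 6 genes, while the 4 genes tested on chromosome 17 sit higher in PASCs and EASCs.

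Among 20 other genes of the plasminogen system, 11 were tested, and 7 rose in each visceral group against SASCs while none fell (median log2 fold change 1.498 in EASCs and 1.27 in PASCs). These lists were written with earlier results of these data known, and the counts of all lists are read against the shares of all genes, with 13.6% upregulated and 14.2% downregulated in EASCs, and 12.0% and 14.9% in PASCs. The genes that rose included the plasminogen-binding proteins S100a10 (73 CPM in SASCs and 223 and 247 CPM in PASCs and EASCs, log2 fold change 1.62 ± 0.064 (SE) in PASCs and 1.77 ± 0.064 (SE) in EASCs), Anxa2 (1.90 ± 0.061 (SE) and 1.52 ± 0.060 (SE)), and Eno1 (1.38 ± 0.057 (SE) and 1.30 ± 0.057 (SE)). The adhesion genes Itgam, Itgb3, and Thbs1 also rose in both groups, with Itgb3 by 2.81 ± 0.121 (SE) in PASCs and 3.14 ± 0.119 (SE) in EASCs. Vtn, the vitronectin gene, was not tested and had 7, 14, and 11 counts in SASCs and none in the other 6 samples. Cpb2, A2m, Klkb1, and Hrg had no read.

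Of 8 genes listed for the endocytosis of serpin and protease complexes, which are receptors and the receptor chaperone Lrpap1, 7 were tested. Lrp1, which clears complexes of serpins with their targets, fell from 4016 ± 316 CPM (SD, n = 3) in SASCs to means of 1072 ± 128 CPM in PASCs, and of 1078 ± 112 CPM in EASCs, a log2 fold change of −1.91 ± 0.081 (SE) and −1.90 ± 0.081 (SE). Sort1 rose in EASCs (1.74 ± 0.080 (SE)), and Lrp2 rose in EASCs, from 3, 4, and 3 counts in SASCs to 36, 48, and 46, though Lrp2 entered the test through its counts in EASCs. In PASCs Lrp2 had 4, 12, and 14 counts, which overlapped SASCs, and its difference (1.60 ± 0.623 (SE), adjusted p = 0.0253) did not pass in 4 of 16 alternative settings, with an adjusted p of up to 0.160. The other 4 did not pass the fold threshold against SASCs.

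Of 19 genes of thrombin and tissue factor, 11 were tested, with 4 upregulated and 2 downregulated in EASCs, and 3 upregulated and 4 downregulated in PASCs, where 14.9% of all genes were downregulated. Those upregulated include F2rl1, a protease-activated receptor with 2, 7, and 6 counts in SASCs, which entered the test through the visceral groups. The tissue factor pathway inhibitors differed in direction. Tfpi fell in PASCs (−1.01 ± 0.054 (SE)) and its relative Tfpi2 rose in EASCs (3.86 ± 0.104 (SE)) and PASCs (1.63 ± 0.116 (SE)). Thrombomodulin (Thbd) fell by 2.37 ± 0.084 (SE) in EASCs and 1.53 ± 0.079 (SE) in PASCs, and F8 fell in both groups (−1.63 ± 0.084 (SE) in EASCs). Pros1, the protein S gene, was downregulated in PASCs (−1.36 ± 0.059 (SE)) and by less than the fold threshold in EASCs (−0.88 ± 0.057 (SE)). F13a1, a chain of factor XIII, was upregulated in EASCs (2.82 ± 0.336 (SE)), from 5 to 19 counts in the SASCs and PASCs samples to 71 to 112.

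Of 26 other proteases listed as possible serpin targets, 15 were tested, with 4 upregulated and 4 downregulated in each visceral group, where 14.2% (EASCs) and 14.9% (PASCs) of all genes were downregulated. Of the complement proteases, Masp1 of the lectin pathway rose from 58.3 CPM in SASCs to means of 253 CPM in PASCs, and of 156 CPM in EASCs (log2 fold change 2.12 ± 0.058 (SE) and 1.42 ± 0.058 (SE)), while C1r and C1s fell, C1s from 1628 CPM in SASCs to levels of 136 CPM in PASCs, and of 217 CPM in EASCs (−3.58 ± 0.058 (SE) and −2.91 ± 0.056 (SE)). The secreted proteases Prss23 and Prss35 rose, Prss35 from 0.756 CPM in SASCs to levels of 89.6 CPM in PASCs, and of 164 CPM in EASCs. Fap, a protease of activated fibroblasts, was downregulated in EASCs (−1.24 ± 0.081 (SE)) and by less than the fold threshold in PASCs (−0.55 ± 0.078 (SE)). Granzyme A and cathepsin G had no read. Gzmb, the granzyme B gene, was not tested and had 10, 10, and 12 counts in EASCs, none in PASCs, and 4, 0, and 0 in SASCs. Of 22 non-serpin inhibitors of serine proteases found in the table, 13 were tested, with 3 upregulated in each group and 3 and 4 downregulated in EASCs and PASCs. Those downregulated include Pi15 in both groups and Spink4 in EASCs, low genes that entered the test through their counts in SASCs. Wfdc1 was upregulated in both groups (3.03 ± 0.067 (SE) in EASCs and 2.91 ± 0.067 (SE) in PASCs) and so was Kazald1 (1.61 ± 0.097 (SE) and 1.29 ± 0.099 (SE)), while Slpi was downregulated (−1.96 ± 0.189 (SE) and −2.09 ± 0.191 (SE)). App, the amyloid precursor gene, whose longer products hold a protease inhibitor domain, was downregulated in PASCs (−1.03 ± 0.058 (SE)) and by less than the fold threshold in EASCs (−0.68 ± 0.058 (SE)).

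Markers of other cell types moved with the same groups. The summed level of 10 mesothelial markers was 20.01 to 21.6 CPM in SASCs, between 99.0 and 106 CPM in PASCs, and between 132 and 144 CPM in EASCs, with 8 of the 10 tested and 7 and 8 of them upregulated in EASCs and PASCs. Of these, Upk3b, Krt18, and Bnc1 had at most 6 counts in any SASCs sample and entered the test through the visceral groups, so their direction was close to fixed by the filter. The keratins Krt8 and Krt18 of this list reached 4.09 and 2.24 CPM on average in EASCs, and Krt18 was at 0 in SASCs. Krt19, another keratin of the list, was not tested and had 8, 3, and 1 counts in SASCs, none in PASCs, and 0, 2, and 0 in EASCs. Of 9 macrophage and leukocyte markers, 8 were in the table, with a summed level of 91.5 to 99.4 CPM in SASCs, between 139 and 143 CPM in PASCs, and between 240 and 249 CPM in EASCs. Of these 8, 6 were upregulated in EASCs, and 3 were upregulated and 1 downregulated in PASCs. Much of the sum in PASCs was Lyz2, a lysozyme gene, at 10.4 CPM in SASCs, and 58.1 and 85.6 CPM in PASCs and EASCs. Without Lyz2 the sum was 82.0 to 88.8 CPM in SASCs, and the PASCs samples overlapped these at 81.5 to 86.1 CPM, while EASCs were at 156 to 159 CPM. Within the list, the receptor Csf1r and the integrin Itgam also rose in PASCs (log2 fold change 1.84 ± 0.128 (SE) and 1.25 ± 0.191 (SE)). The scavenger receptor Cd163 was downregulated in PASCs (log2 fold change −1.88 ± 0.093 (SE)), and the mannose receptor Mrc1 was lower there by less than the fold threshold (−0.32 ± 0.093 (SE)). The mesothelial sum was lowest in SASCs and highest in EASCs, as Serpinb9 and Plaur were.

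Smooth muscle and pericyte markers summed to 160 to 172 CPM in SASCs, between 2829 and 3126 CPM in PASCs, and between 6317 and 6685 CPM in EASCs, in the order of Plaur and Serpinb9. Most of this sum was Acta2 and Tagln, contractile genes, and 5 of the 6 markers were upregulated in each visceral group, while the pericyte marker Rgs5 was downregulated in both (log2 fold change −2.85 ± 0.556 (SE) in EASCs and −3.83 ± 0.628 (SE) in PASCs). Rgs5 had at most 7 counts in any visceral sample and entered the test through SASCs. Adipocyte markers summed to 87.1 to 95.9 CPM in SASCs, between 19.1 and 20.2 CPM in PASCs, and between 9.24 and 10.1 CPM in EASCs, and Schwann cell and melanocyte markers to 39.5 to 43.8, 6.35 to 7.59, and 2.55 to 3.76 CPM, in the order of Serpina3n, with Dct at 0 in all samples. Endothelial markers summed to 44.5 to 46.3 CPM in SASCs, between 11.7 and 14.7 CPM in PASCs, and between 30.6 and 33.5 CPM in EASCs, with PASCs lowest as for Plat. Of the 6 endothelial markers tested, 5 were downregulated in PASCs, and Tek, the angiopoietin receptor, was upregulated there, from 2.55 CPM in SASCs to means of 8.30 CPM in PASCs and 8.08 CPM in EASCs (log2 fold change 1.71 ± 0.153 (SE) and 1.66 ± 0.153 (SE)). The part of these cell types in the differences of the serpins and their partners was not tested.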

How the data were processed

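RNA was sequenced by the authors from 9 samples of cultured rat adipose stem cells, 3 in each of 3 groups assigned by their labels. The authors aligned paired reads with TopHat and deposited whole-number read counts per gene for 35362 genes, not normalized, with gene spans and lengths. The study's methods name the rat genome rn6, and the positions in the deposited table fit rn6, while the submitters' processing notes list TopHat2 and rn5. The tool that counted reads, its use of strand, and its treatment of reads matching several genes are not given in the sources used here. Positions are those of the table.

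Counts were normalized by TMM, with factors from 0.740 to 1.23, filtered with filterByExpr (minimum count 10, minimum total 15), and fitted for all 14770 genes in 1 model of the 3 groups with edgeR 4.0.16 in R 4.3.3. The common biological coefficient of variation was 0.0685. Adjustment of p-values (Benjamini-Hochberg) ran over all genes tested in each comparison. The standard error of a log2 fold change was its size divided by the square root of the F statistic. Ratios were log2 ratios of counts with 0.5 added, compared by two-sided exact permutation tests. The genes and lists were chosen with earlier results of these data known. The rule selects 42 genes, of which 1 is not reported here. All other members tested are named, and at most 6 genes of each other list, those above 2-fold in either comparison with SASCs with the highest level in any group. Genes of the lists named as having no read, single marker genes, Gzmb, Vtn, F2rl1, Pi15, Spink4, Lrpap1, and the genes not tested were named after their values were seen. Results of the study's metabolite data were not used here.

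Replicates of a group differed by more than counting error (chi-square per degree of freedom from 4.51 to 17.5 without rRNA genes). Samples of the same number did not deviate together (correlations of deviations from −0.035 to 0.038), so no pairing by number was seen. With 3 samples a group, this cannot exclude that samples share a rat or a culture batch. Counts were simulated for EASCs against SASCs over 14770 genes with the common dispersion and no other difference between groups. At an adjusted p under 0.05 in the right direction, without the fold threshold, 187 of 200 changed genes were recovered. These were 93 of 100 at a fold of 2 and 94 of 100 at a fold of 4. Under the full DEG rule 1 unchanged gene was called, and the recovery of changed genes by that rule was not measured. Alternatives were RLE and upper-quartile factors, total counts, DESeq2 1.42.0, no filter, only the groups compared, a replicate block, rRNA genes removed, another threshold, and each sample left out in turn.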

Additional observations from a re-analysis of the deposited data

Results flagged for a closer look

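The effects of EASCs and PASCs against SASCs differed for 2 of the genes past a 2-fold difference, by the test of EASCs against PASCs in the same edgeR model. Plat was higher in EASCs by 1.63 on the log2 scale, with a difference from SASCs in PASCs and none that passed in EASCs. Serpinb1a differed by −1.49, higher in both visceral groups than in SASCs and most so in PASCs. Every EASCs sample was on the same side of every PASCs sample for both genes. The summed level of the endothelial markers was lowest in PASCs, as Plat was, though Tek among them was not, and their part was not tested.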

How the results depend on the processing

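The number of members called between EASCs and PASCs was 2 in the reported fit and 9 when any fold change with an adjusted p under 0.05 was counted. Leaving out each sample in turn gave 8 to 8 members between EASCs and SASCs, 9 to 10 between PASCs and SASCs, and 2 to 2 between EASCs and PASCs. With the replicate block, the counts of members were 8, 9, and 2, as without it, and whether the replicate numbers pair samples is not known. Without the filter the counts were 10 in each comparison with SASCs, with Serpina12 added in both and Serpinb2, on 1 library, in EASCs. With only PASCs and SASCs in the fit, Serpinb8 did not pass the filter.

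Under total counts the median log2 fold change of all genes was −0.39 in EASCs and −0.33 in PASCs. This scaling turned Serpinf1 to −0.071 in EASCs and −0.18 in PASCs, and Lrp1 between EASCs and PASCs to −0.086. Thbs1 between EASCs and PASCs was 0.017 with upper-quartile factors. Leaving out each sample in turn, the direction turned for Serpinf2 between EASCs and SASCs (from −1.06 to 0.15) and, between EASCs and PASCs, for Serpinb6b (from −0.257 to 0.091), Thbs1 (from −0.063 to 0.093), Lrp1 (from −0.076 to 0.105), and F8 (from −0.109 to 0.012). The cause of these turns was not tested. Of 662 values of members under alternatives, 638 kept their direction and their side of the threshold of 0.05. Depth limits the genes under about 10 counts, and 3 samples a group limit the exact tests.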
